A study of Mus musculus with 40 samples.

Results

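The baseline described here is the ribosome-bound RNA of the accumbens nucleus in Drd1-TRAP CP73 mice that had self-administered saline. Of the 40 libraries of the study, 11 came from saline mice, and 9 of these made up the set: 4 sampled 24 hours after self-administration (replicates 1, 2, 3 and 6) and 5 sampled about 1 month after it (replicates 1 to 5). The remaining pair of saline libraries, 24-hour replicates 4 and 5, was left out because its profile differed from the others, and its values are given below. The other 29 libraries came from mice that had taken cocaine, split by the labels into nonescalating and escalating groups at the same 2 times.

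All 9 libraries were immunopurified RNA from adult mice of 1 transgenic line, on a background described as FVB/N-Swiss Webster crossed for at least 9 generations to C57BL/6. In this line the D1 dopamine receptor gene's regulatory sequence drives an EGFP-tagged copy of the ribosomal protein Rpl10a, and antibodies to EGFP recover the tagged polysomes. The procedure is called translating ribosome affinity purification (TRAP). The labels do not say how many animals stand behind a library or whether libraries came from separate animals, so n counts libraries and any p measures the spread between these samples. The saline mice self-administered saline under the same intravenous design as the cocaine mice, and naive mice are not part of the set. No RNA from before the immunopurification was used here, so levels are given and enrichment is not. The labels used here name no sequencing run, so whether a run moved with sampling time was not tested.

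D1 medium spiny neurons are GABA-releasing projection neurons of the striatum and the accumbens nucleus. Dopamine acting on their D1 receptor activates the G protein Golf and raises cyclic AMP, which acts through protein kinase A on the phosphoprotein DARPP-32. They co-release dynorphin and substance P, whereas the neighbouring D2 medium spiny neurons carry the D2 receptor, an adenosine receptor and enkephalin.

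Depth was 9.24 to 12.9 M gene counts in 8 libraries and 33.9 M in 1-month replicate 5. Between 4.29% and 10.1% of the counts lay on Rn45s, the precursor of ribosomal RNA, and reads outside annotated features made up 18.7% to 28.8%. Spearman correlations between libraries were taken over genes at 1 CPM or more (scale defined below) in any of the 11 saline libraries. This set is wider than the detected genes defined below. Among the 9 libraries the correlations ran from 0.840 to 0.968 (median 0.918 over 36 pairs). The lowest median correlation of a library with the others, 0.870, was that of 24-hour replicate 6. The pair left out had correlations of 0.772 and 0.707, 70.3% and 51.1% of reads outside features, and 3.77 and 7.22 M counts. In all 36 pairs of the set the counts differed by far more than sampling noise (chi-square per gene 39.8 to 309), so no pair looked like 1 library deposited again; whether a pair was prepared from the same RNA was not tested.

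Abundance is given on 2 scales. CPM, the counts scaled to a common library total with TMM factors, compares a gene between libraries. The per-length level divides the counts by the summed exon length of the gene, is scaled to a common total as TPM and serves to compare genes with each other. Symbols without a single gene model (8691), models under 200 bases and Rn45s have no TPM here. A gene was called detected at 1 CPM or more in all 9 libraries. This held for 9326 of 32531 listed symbols, while 13143 symbols had no count in any of the 9 and 15776 reached 1 CPM in at least 1. Of the 9326 detected genes, 9121 had a TPM. Protein-coding genes held 89.3% of the counts (86.5% to 92.1%).

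The markers of D1 medium spiny neurons were abundant in every library. Drd1, the D1 receptor and the source of the transgene's regulatory sequence (ENSMUSG00000021478.6, GRCm38 chr13:54051183-54055705, minus strand), had per-length levels of 725, 703, 961 and 865 TPM in 24-hour replicates 1, 2, 3 and 6. At 1 month its levels were 781, 874, 775, 861 and 1010 TPM in replicates 1 to 5. The 2 times overlapped, the mean was 839 ± 103 TPM (SD, n = 9), and Drd1 ranked 128 of 22606 genes with a per-length level. Fewer cells of a type and less RNA per cell cannot be told apart in these bulk libraries, here and below.

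Pdyn, which encodes the dynorphin precursor (ENSMUSG00000027400.11, chr2:129686565-129699844, minus strand), stood at 583, 638, 904 and 686 TPM at 24 hours and at 692, 832, 1105, 928 and 894 TPM at 1 month. Its mean of 807 ± 169 TPM (SD, n = 9) lay within the range of Drd1, and the order of these 2 genes changed between libraries. Tac1, the substance P precursor (ENSMUSG00000061762.12, chr6:7554879-7565834, plus strand), was lower, at 474, 324, 502 and 180 TPM at 24 hours and 353, 626, 461, 463 and 353 TPM at 1 month. Its mean was 415 ± 128 TPM (SD, n = 9), and its lowest value was that of 24-hour replicate 6. With the summed exon length, its highest library stayed below the lowest library of Drd1. Whether this held with the longest transcript as length was not tested.

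Ppp1r1b encodes DARPP-32, which both kinds of medium spiny neuron make (ENSMUSG00000061718.12, chr11:98348404-98357796, plus strand). Its levels were 2209, 2272, 3372 and 4825 TPM at 24 hours and 3822, 1819, 2720, 3143 and 3314 TPM at 1 month. Its lowest library was above the highest library of Drd1, Pdyn and Tac1, and with a mean of 3055 ± 926 TPM (SD, n = 9) it ranked 14 among all genes. Its highest library was 24-hour replicate 6, the one with the lowest Tac1.

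**Figure D1:**
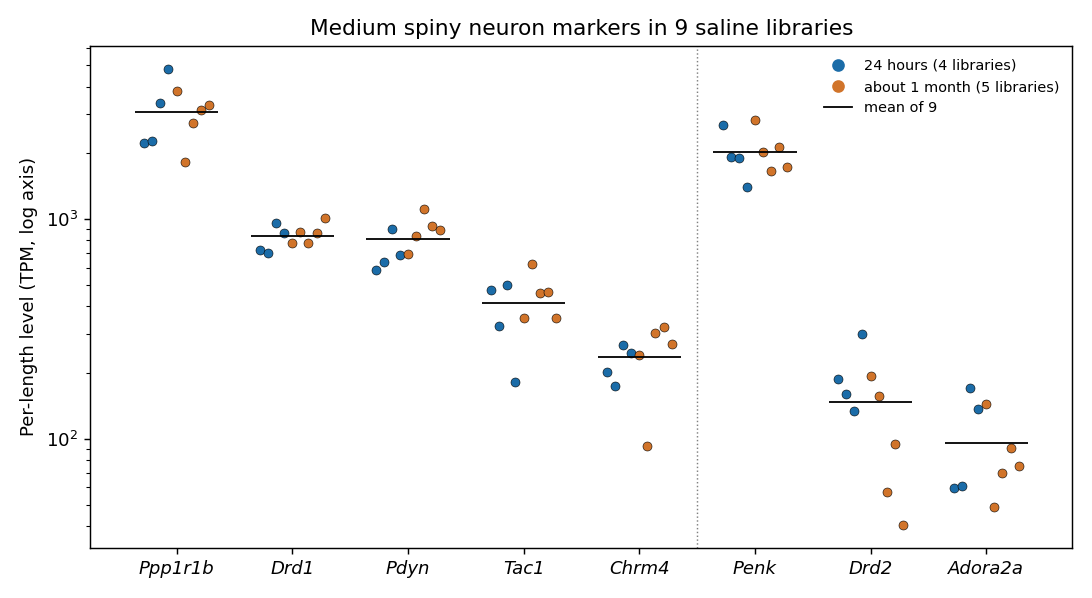
Per-length level (TPM, log axis) of 5 markers of D1 or all medium spiny neurons and, right of the dotted line, 3 D2 markers in the 9 saline libraries, each point a library and the bar the mean. Drd1 lies between 703 and 1010 TPM, while Drd2 runs from 40.5 to 299 TPM and Penk from 1398 to 2824 TPM.

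The starts of Drd1, Pdyn and Tac1 are shown because the transgene of the line uses the regulatory sequence of Drd1 and the other two are the peptide markers of D1 neurons; that of Ppp1r1b is not shown here; the sequences are the 250 bases before and 50 bases from a transcript start, from RefSeq on GRCm38.p6, read 5′ to 3′ on the gene's strand. Capitals mark matches, on either strand, to GGGCGG (a GC box) or CCAAT (the CCAAT box, ATTGG on the other strand). Neither TATAAA nor the cyclic AMP response element TGACGTCA was found in any of them, and these motifs do not overlap each other. Both starts of Drd1 are given, at chr13:54055609-54055908 and chr13:54054731-54055030 on the minus strand, with the upstream start of Pdyn at chr2:129699889-129700188 on the minus strand and Tac1 at chr6:7554811-7555110 on the plus strand. The RefSeq table also lists a second start for Pdyn.
Drd1 upstream start: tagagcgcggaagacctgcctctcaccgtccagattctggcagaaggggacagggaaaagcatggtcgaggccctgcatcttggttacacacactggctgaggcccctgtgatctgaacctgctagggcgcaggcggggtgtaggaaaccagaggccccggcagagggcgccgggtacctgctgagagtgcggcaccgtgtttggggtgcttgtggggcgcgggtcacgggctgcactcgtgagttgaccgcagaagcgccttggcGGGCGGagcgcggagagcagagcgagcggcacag
Drd1 downstream start: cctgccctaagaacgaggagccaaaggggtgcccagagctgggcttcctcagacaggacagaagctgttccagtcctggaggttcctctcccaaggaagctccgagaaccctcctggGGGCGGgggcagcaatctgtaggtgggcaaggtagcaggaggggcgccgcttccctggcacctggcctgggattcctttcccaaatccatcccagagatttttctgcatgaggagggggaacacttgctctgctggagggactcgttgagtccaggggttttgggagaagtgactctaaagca
Pdyn upstream start: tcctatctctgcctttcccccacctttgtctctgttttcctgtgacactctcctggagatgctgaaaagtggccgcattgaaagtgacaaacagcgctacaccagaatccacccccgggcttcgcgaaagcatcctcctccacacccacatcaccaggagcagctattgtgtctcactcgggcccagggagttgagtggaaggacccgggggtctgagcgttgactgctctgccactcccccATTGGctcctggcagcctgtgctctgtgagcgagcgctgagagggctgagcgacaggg
Tac1 start: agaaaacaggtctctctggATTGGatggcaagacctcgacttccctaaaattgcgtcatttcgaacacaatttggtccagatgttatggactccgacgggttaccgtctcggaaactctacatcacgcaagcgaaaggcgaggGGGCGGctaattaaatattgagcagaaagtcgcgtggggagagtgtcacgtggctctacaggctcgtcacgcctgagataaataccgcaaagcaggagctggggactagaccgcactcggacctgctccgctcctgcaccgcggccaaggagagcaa

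Each Drd1 start held 1 GC box, Tac1 held 1 GC box and 1 CCAAT box, and Pdyn held 1 CCAAT box. The ratio of observed to expected CpG was 0.740 at the upstream and 0.230 at the downstream Drd1 start, 0.425 for Pdyn and 1.01 for Tac1. Over 5455 detected genes with 1 start in the table, the median ratio was 0.815, against 0.201 over 5724 genes that stayed under 1 CPM in all 9 libraries. A GC box stood in 69.7% of the detected and 17.9% of the undetected promoters (35.2% of all 22862), and TATAAA in 5.74% and 23.5% (14.8% of all). The element TGACGTCA was found in 3.81% and 0.961% (1.85% of all), whereas CCAAT hardly separated them, at 39.3% and 39.6% (38.2% of all). The GC box and TGACGTCA contain CpG, so these shares move with CpG content.

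Other genes listed as D1 markers were present at intermediate levels, and all 10 were detected. Eya1, a transcriptional cofactor, had 413 ± 75.4 TPM (SD, n = 9, 315 to 580). The muscarinic M4 receptor Chrm4 had 235 ± 70.6 TPM, with a lowest library at 92.3, a median of 246 and a highest at 323. Slc35d3, a transporter-like protein, ranged from 26.6 to 250.9 TPM around a median of 147. Isl1, a LIM-homeodomain factor used in the development of D1 neurons, had 36.4 ± 12.1 TPM, and Ebf1, another developmental factor of these neurons, 31.5 ± 12.95 TPM. Ebf1 was highest in 24-hour replicate 6, at 63.4 TPM against 36.3 TPM in the next library.

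The D2 markers were also detected, all 10 of them, and Penk stood above every D1 peptide. Drd2, the D2 receptor, had 186, 160, 133 and 299 TPM at 24 hours and 194, 156, 57.0, 94.2 and 40.5 TPM at 1 month. It was lower than Drd1 in each of the 9 libraries, by 2.73 ± 0.99 on the log2 scale (SD, n = 9), or 6.64-fold on average. The log2 ratio was smallest in 24-hour replicate 6, at 1.53, and largest in 1-month replicate 5, at 4.64. In the pair of libraries left out of the set, the ratio was -0.72 in 24-hour replicate 4 and -0.24 in replicate 5, so that Drd2 exceeded Drd1 there.

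Penk, the enkephalin precursor, had 2671, 1909, 1885 and 1398 TPM at 24 hours and 2824, 2007, 1653, 2124 and 1718 TPM at 1 month. Its lowest library was above the highest library of Pdyn and of Tac1. The log2 ratio of Tac1 to Penk was -2.32 ± 0.47 and that of Pdyn to Penk -1.32 ± 0.52 (SD, n = 9), negative in 9 of 9 libraries each. The size of the first ratio depends on the length used, since it was -1.71 with the longest transcript in place of the summed exons.

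Adora2a, the adenosine receptor of D2 neurons, had 95.2 ± 44.0 TPM (SD, n = 9), from 49.0 to 171, and was below Chrm4 in each of the 9 libraries (log2 ratio of Chrm4 to Adora2a 1.35 ± 0.57). In the libraries left out the other pairs did not go one way. In replicate 4 the log2 ratios of Chrm4 to Adora2a, Pdyn to Penk and Tac1 to Penk were -1.24, -3.38 and -4.10, each below the 9 libraries. In replicate 5 they were 1.72 and -0.88, inside the range of the 9, and -1.58, above their highest value of -1.68. Gpr6, an orphan receptor of D2 neurons, had 38.8 ± 22.7 TPM, and Sp9, a factor for the development of D2 neurons, 20.01 ± 7.06 TPM. Summed over the lists, D1 markers held 3126 ± 334 TPM and D2 markers 2686 ± 499 TPM (SD, n = 9), and Penk made up most of the D2 sum. All 10 D1 genes entered their sum, but only 9 of the 10 D2 genes had a TPM.

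Markers of other cells were low beside those of medium spiny neurons but not absent. The 22 genes shared by both kinds of medium spiny neuron summed to 16565 ± 1572 TPM (SD, n = 9), and all 22 were detected. Astrocyte markers summed to 523 ± 108 TPM with 4 of 14 detected, led by the glutamine synthetase gene Glul (216 ± 38.9 TPM) and the glutamate transporter gene Slc1a2 (201 ± 47.9 TPM). The astrocyte transporter gene Slc1a3 was far lower, at 14.1 ± 6.19 TPM, and the water channel gene Aqp4 lay between 0.506 and 7.45 TPM.

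Oligodendrocyte markers summed to 168 ± 58.7 TPM (4 of 14 detected), with the myelin gene Mbp at 53.0 ± 22.0 TPM. Microglia markers summed to 26.3 ± 27.0 TPM, and none of the 12 was detected in all libraries. Of the vascular markers 10 of 14 were detected, with a median of 19.6 TPM. Their sum differed 10.3-fold between libraries, from 79.7 TPM in 1-month replicate 5 to 824 TPM in 24-hour replicate 6. The tight junction gene Cldn5 showed the same extreme: it had 258 TPM in 24-hour replicate 6 and 0.400 to 38.5 TPM in the other 8, and its mean of 44.6 TPM was 17.9 TPM without that library. Interneuron markers summed to 573 ± 225 TPM with 3 of 14 detected, and the largest part of that sum belonged to the somatostatin gene Sst, at 296 ± 127 TPM. The cholinergic marker Chat had a median of 0.316 TPM and Pvalb, the parvalbumin gene, a median of 0.

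Both libraries left out had higher astrocyte, oligodendrocyte, microglia and vascular sums and lower D1 sums than each of the 9. Astrocyte markers summed to 3163 and 1945 TPM in 24-hour replicates 4 and 5, oligodendrocyte markers to 2241 and 1357 TPM, microglia markers to 181 and 115 TPM and vascular markers to 3074 and 3058 TPM. Interneuron markers summed to 2577 TPM in replicate 4, but to 369 TPM in replicate 5, inside the range of the 9 (282 to 989 TPM). D1 markers summed to 739 and 1891 TPM, against 2632 to 3516 TPM in the 9 libraries kept. These 2 libraries were set aside for their profiles, so the differences are a description.

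**Figure D2:**
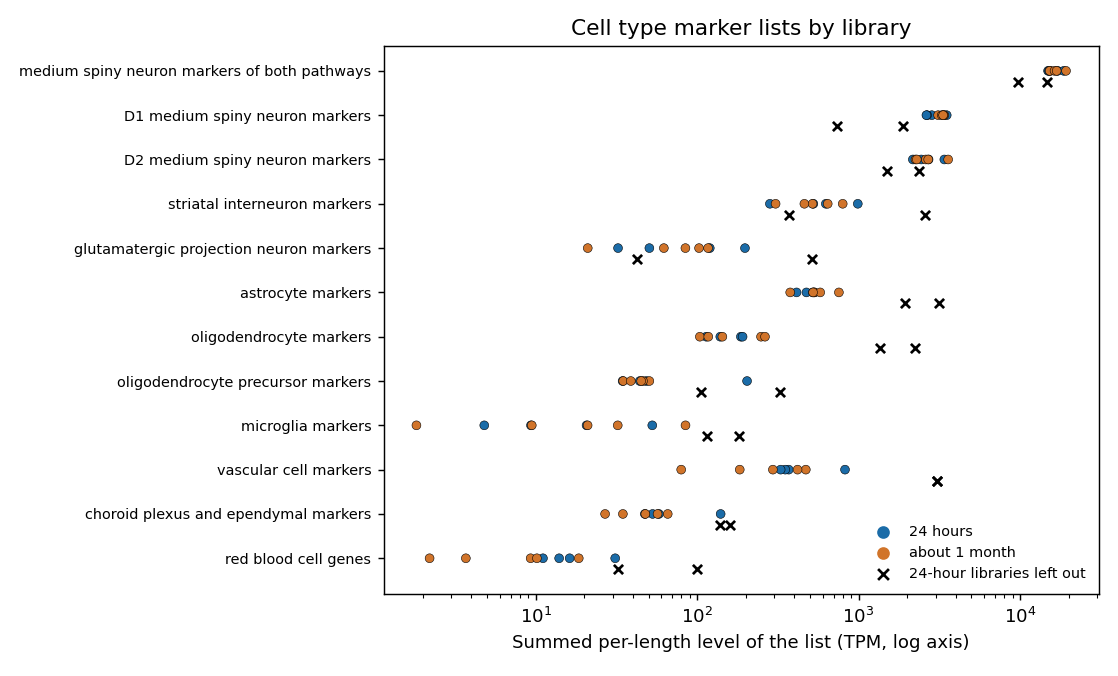
Summed per-length level (TPM, log axis) of 12 cell type marker lists, each circle one of the 9 saline libraries and each cross one of the 2 saline libraries left out. Medium spiny neuron lists lie within narrow ranges, while vascular markers run from 79.7 to 824 TPM among the 9 and at 3074 and 3058 TPM in the crosses.

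Over all genes, the abundance curve was steep at the top. The 10 most counted genes took 12.4% ± 1.72 of the counts (SD, n = 9), the top 100 took 25.9% ± 1.8 and the top 1000 took 60.3% ± 1.6. Without Rn45s these shares were 5.72%, 19.99% and 57.1%. By mean CPM, 90 genes reached 1000, 2099 reached 100 and 8330 reached 10, and the median per-length level of detected genes was 43.6 TPM.

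The highest per-length level was that of Calm2, which encodes calmodulin, the calcium sensor. It had a lowest level of 7061, a median of 15515 and a highest of 25371 TPM (mean 16621 ± 5543, SD, n = 9). Ndrg4, a gene highly expressed in brain, was the second at 6436 ± 492 TPM, between 5647 and 7166. The 14-3-3 adaptor genes Ywhaz (6015 ± 1283 TPM) and Ywhae (4302 ± 579 TPM), the vesicle fusion gene Snap25 (5441 ± 2015 TPM) and the GTPase gene Arf3 (4230 ± 1145 TPM) followed. The ranges of Calm2 and Ndrg4, of Ndrg4 and Ywhaz, and of Ywhaz and Snap25 (3390 to 8430 TPM) overlapped.

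Calm2, Ndrg4, Ywhaz, Snap25, Ywhae, Arf3, the chaperone gene Hsp90ab1 and the glycolytic gene Gapdh were in the top 20 of every library. The top 20 of the 24-hour mean and of the 1-month mean were the same 20 genes, from libraries the 2 means do not share. With the longest transcript as length, 17 of the 20 were shared. Among the 20 were also Ncdn (3152 ± 748 TPM), the neurochondrin gene, and Hpca (2719 ± 711 TPM), which encodes the neuronal calcium sensor hippocalcin, and the protein kinase C gene Prkcb (2689 ± 482 TPM).

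**Figure D3:**
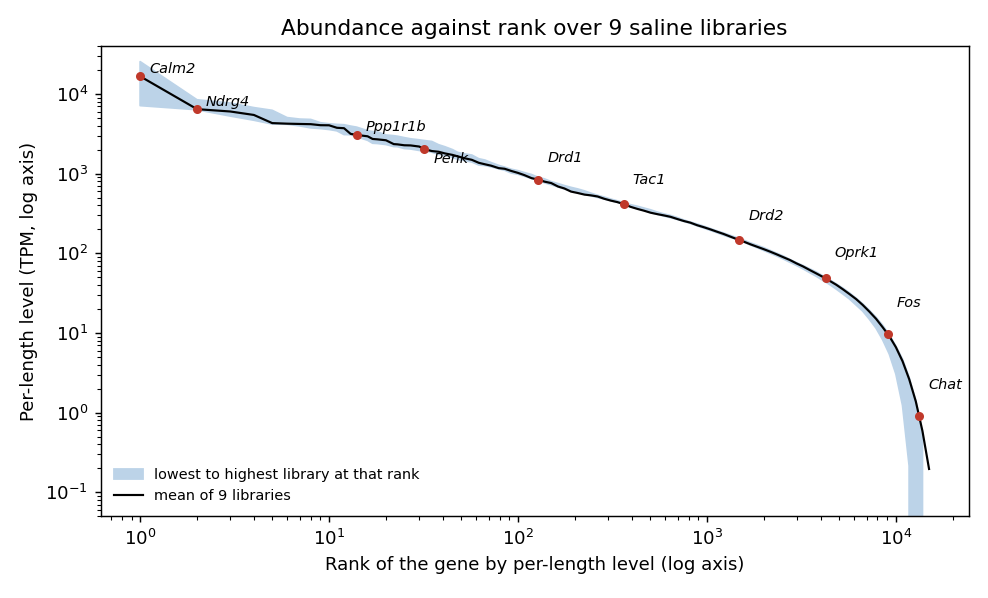
Per-length level (TPM) against rank of the gene, both on log axes, for the mean of the 9 saline libraries (line) and the lowest to highest library at each rank (band), with selected genes marked. Calm2 ranks 1 at 16621 TPM, Ppp1r1b 14, Penk 32, Drd1 128, Tac1 362 and Drd2 1487.

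The dopamine and cyclic AMP pathway was present nearly whole, with 38 of 40 listed genes detected and a median of 288 TPM, against 43.6 TPM over all detected genes. Among the dopamine receptors, Drd1 (839 TPM) was followed by Drd2 (147 ± 78.7 TPM) and the D3 receptor gene Drd3, which had a lowest level of 22.4, a median of 48.6 and a highest of 134 TPM. Drd1 did not overlap with either, while Drd2 and Drd3 overlapped. Drd5 and Drd4 had means of 0.155 and 0.0512 TPM and were the only 2 members of the list under 1 CPM in all 9 libraries.

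Downstream of the receptor, the Golf alpha subunit gene Gnal had 1488 ± 194 TPM and the gamma subunit gene Gng7 1766 ± 398 TPM (SD, n = 9). Adcy5, the striatal adenylyl cyclase, had 368 ± 47.6 TPM, between 309 and 446, against 15.6 ± 6.54 TPM for Adcy3. The protein kinase A catalytic subunit genes Prkacb and Prkaca had 759 ± 153 and 467 ± 111 TPM, and the anchoring protein gene Akap5 had 1080 ± 161 TPM. The phosphodiesterase genes Pde10a (877 ± 80.8 TPM) and Pde1b (673 ± 93.3 TPM), which break down cyclic nucleotides, were among the evenly spread genes of the list. Ppp3ca, the calcineurin subunit that acts on DARPP-32, had 1161 ± 198 TPM.

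Neuropeptide genes covered a wide range of levels, with a median of 61.02 TPM over the list. Of 28 listed, 14 were detected and 4 stayed under 1 CPM throughout. After Penk came the secretogranin gene Scg2 (1863 ± 279 TPM), Pdyn, the chromogranin gene Chgb (751 TPM) and the processing enzyme gene Cpe (670 TPM). Cartpt, the precursor of the CART peptide, had 284 ± 85.1 TPM and the neurotensin gene Nts 92.8 ± 55.6 TPM. The cholecystokinin gene Cck had 86.4, 285, 220 and 0 TPM in the 24-hour replicates 1, 2, 3 and 6 and 106, 238, 167, 136 and 59.7 TPM at 1 month. It was therefore present in 8 libraries and had no count in 24-hour replicate 6.

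Receptors for peptides were much lower than the peptides. Of 22 listed, 12 were detected, with a median of 11.02 TPM. Adcyap1r1, the PACAP receptor gene, led with 87.6 ± 22.6 TPM. Among the opioid receptor genes the kappa receptor Oprk1, which binds dynorphin, had 48.2 ± 9.78 TPM, the mu receptor Oprm1 35.0 ± 13.97 TPM and the delta receptor Oprd1 10.7 ± 7.68 TPM. Oprk1 (36.4 to 66.0 TPM) did not overlap with Oprd1 (1.46 to 27.2 TPM), and Oprm1 overlapped with both. The neuropeptide Y receptor gene Npy1r had a mean of 45.1 TPM that fell to 27.8 TPM without 1-month replicate 1, where it reached 184 TPM.

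Among receptors of other transmitters, Chrm4 was followed by the M1 receptor gene Chrm1 (158 ± 31.1 TPM) and the serotonin receptor gene Htr2c (101 ± 21.4 TPM), and 9 of 20 listed genes were detected. The cannabinoid receptor gene Cnr1 had 46.6 ± 18.4 TPM, and the enzymes that make and break down its ligand 2-AG, Dagla and Mgll, had 92.3 ± 30.4 and 83.6 ± 51.7 TPM. Mgll was highest in 24-hour replicate 6, at 208 TPM against 103 TPM in the next library.

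Genes that make and transport GABA were among the abundant ones, and 21 of 23 listed GABA genes were detected. Gad2, a GABA-synthesizing enzyme, had 2343 ± 403 TPM (SD, n = 9) and ranked 22, while the second enzyme gene Gad1 had 310.3 ± 48.1 TPM and the vesicular transporter gene Slc32a1 391.6 ± 112 TPM. Gad2 and Gad1 did not overlap. Among the receptor subunit genes were Gabra5 (135 ± 26.2 TPM), Gabra4 (119 ± 35.8 TPM) and Gabrd (110 ± 51.4 TPM). Gabra2 had 23.1 to 38.4 TPM in 8 libraries and 2.77 TPM in 24-hour replicate 6, and Gabra6 had no count in any of the 9.

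Glutamate receptor and scaffold genes were detected in 37 of 42 cases, with a median of 88.1 TPM. The kinase gene Camk2a had 2393 ± 520 TPM, the AMPA receptor genes Gria1 and Gria2 463 ± 130 and 308 ± 64.8 TPM, and the scaffold genes Dlg2 and Dlg4 412 ± 46.3 and 270 ± 59.3 TPM. Among the NMDA receptor genes the obligatory subunit Grin1 had 154 ± 56.6 TPM and Grin2b 117 ± 35.4 TPM, against 10.8 ± 3.55 TPM for Grin2a. Grin2b (70.3 to 194 TPM) and Grin2a (6.19 to 15.9 TPM) did not overlap. Of the metabotropic receptor genes Grm3 (320 ± 110 TPM) and Grm5 (252 ± 33.9 TPM) led, and Grm8 had a mean of 0.583 TPM.

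Potassium channel genes were detected in 38 of 42 cases, and their sum lay between 3832 and 4415 TPM, a ratio of 1.15 between the highest and the lowest library. Kcna1, a delayed rectifier subunit, had 579 ± 53.4 TPM. The auxiliary subunit gene Kcnip2 had 335 ± 60.8 TPM and Kcnd2, an A-type subunit, 205 ± 24.7 TPM (SD, n = 9). The inward rectifier genes Kcnj2 and Kcnj4, prominent in medium spiny neurons, had 122 ± 30.4 and 114 ± 44.2 TPM. Among sodium channel genes the beta subunits Scn2b (633 ± 166 TPM) and Scn4b (384 ± 68.8 TPM) led. The calcium channel genes Cacnb4 and Cacna1e had 326 ± 42.4 and 221 ± 37.5 TPM.

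Transcription factors and activity-regulated genes showed a wide range. Mef2d (590 ± 147 TPM) and Bcl11b (486 ± 156 TPM), the latter a regulator of medium spiny neuron development, led the striatal factors, of which 25 of 32 were detected. Foxp1 had 333 ± 68.4 TPM and Foxp2 145 ± 28.8 TPM. Among immediate early genes, which neuronal activity induces, Egr1 had 565 at the lowest, 713 at the median and 1148 TPM at the highest, and Egr3 had 419 ± 96.3 TPM. Nr4a1 (87.5 ± 31.5 TPM), Arc (71.6 ± 22.9 TPM), Fosb (39.8 ± 17.8 TPM) and Fos (9.62 ± 4.24 TPM) stood lower. The highest Fos library, at 14.2 TPM, stayed under the lowest Fosb library, at 22.95 TPM, and under the lowest Egr1 library. The neurotrophin gene Bdnf was near 0, with a median of 0.273 TPM and 4.79 TPM in 1-month replicate 2. In the Ras-ERK list all 23 genes were detected, led by the calcium- and diacylglycerol-responsive activator Rasgrp1 (1560 ± 318 TPM), with the striatal phosphatase gene Ptpn5 at 619 ± 114 TPM.

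Housekeeping and synaptic vesicle classes took large shares of the per-length total. Nuclear genes of oxidative phosphorylation summed to 2.02% of it (54 of 55 detected; Atp5b 2937 ± 701 TPM), synaptic vesicle release genes to 1.94% (26 of 28; Snap25, Vamp2 at 2256 ± 473 TPM), cytoskeletal genes to 1.90% (32 of 33; Actb 3034 ± 410 TPM) and cytosolic ribosomal proteins to 1.52% (78 of 79). The dopamine and cyclic AMP list summed to 2.01%, as much as oxidative phosphorylation with fewer genes.

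The ribosomal proteins had a median of 125.9 TPM, and Rps15 (1101 ± 410 TPM) and Rpl4 (854 ± 128 TPM) led. Rpl10a, whose tagged copy the transgene carries, was the fourth of 79, at 660 ± 109 TPM (SD, n = 9), and ranked between 2 and 7 in single libraries. In each library it was above the median ribosomal protein, by values of 509 to 858 against 103 to 179 TPM. Reads of the transgene and of the native gene cannot be told apart in these counts. Rpl26 had no count in any library and Eno1 and Atp5l had means of 6.63 and 1.87 TPM. The files' summary lines count reads placed at several positions apart from the genes, so levels of ribosomal protein genes and of other genes with near-identical copies are uncertain and can be too low.

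The noncoding RNA Malat1, which is retained in the nucleus, was among the top 20 genes. It had 4453, 2675, 1465 and 1834 TPM at 24 hours and 3447, 5563, 1632, 1390 and 1112 TPM at 1 month. Its 4 highest libraries were replicates 1 and 2 of each time, and these 4 were also the highest for Snap25, at 5817 to 8430 TPM against 3390 to 4257 TPM in the other 5. Meg3, another noncoding RNA, had 184 ± 83.5 TPM and Neat1 a median of 2.001 TPM. The Y-linked genes Ddx3y (19.3 to 51.0 TPM) and Eif2s3y (9.52 to 46.6 TPM) were present in all 9 libraries, and Xist, made from the inactive X chromosome of females, reached at most 0.988 TPM.

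Spread between libraries fell with abundance. The SD of log2 CPM within a sampling time had a median of 0.538 over the detected genes (quartiles 0.369 and 0.775). It was 0.861 in the lowest decile of genes by mean CPM and 0.293 in the highest. edgeR's common biological coefficient of variation was 0.643, and its trend went from 1.12 at a log2 CPM of 1 to 0.273 at a log2 CPM of 8. The library farthest from its time's mean was 24-hour replicate 6, with a median absolute deviation of 0.546 log2, and the nearest was 1-month replicate 4, with 0.200. Without 24-hour replicate 6 the median SD was 0.457, and with all 11 saline libraries 0.833.

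More abundant genes were also longer. The median summed exon length rose from 3795 bases in the lowest to 7670 bases in the highest decile, and that of the longest transcript from 2887 to 5441 bases. CPM is not divided by length, so a longer gene yields more counts at the same number of molecules.

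Among 6352 genes with a mean of at least 20 CPM, the smallest spread was that of Rap1gds1, an exchange factor for small GTPases, which had 204 to 231 CPM and a within-time SD of 0.067 log2. Gprasp1, a receptor sorting protein, had 703 to 826 CPM (SD 0.069), Timp2, a metalloproteinase inhibitor, 416 to 510.3 CPM (SD 0.073) and Clock, a circadian transcription factor, 156 to 186 CPM (SD 0.081). Of the 4 set markers, Drd1 (SD 0.18) and Pdyn (SD 0.20) lay below the median spread of the top decile of genes, and Tac1 (SD 0.47) and Ppp1r1b (SD 0.50) above it. Drd2 had an SD of 0.86.

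**Figure D4:**
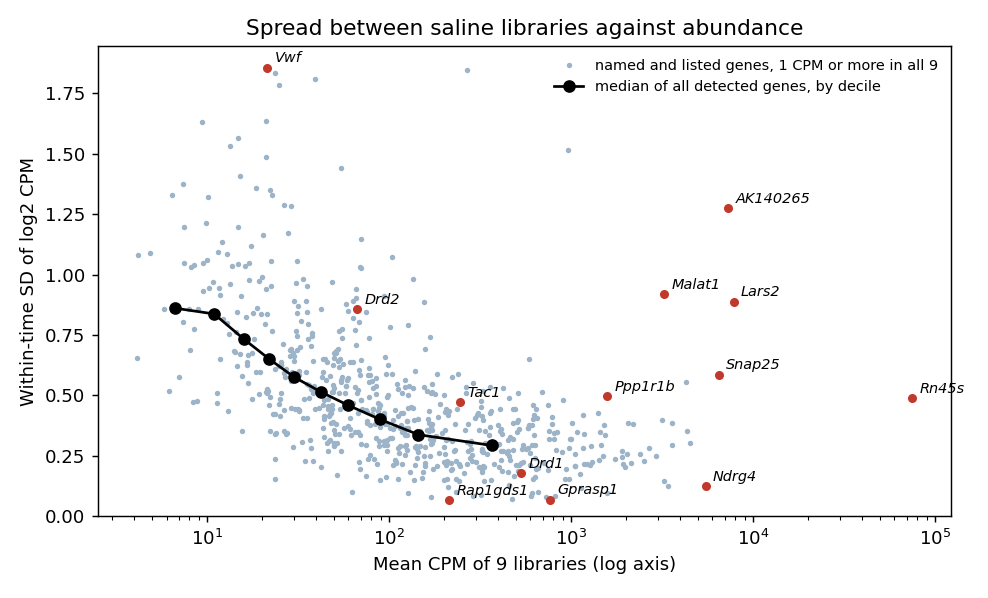
SD of log2 CPM within a sampling time against mean CPM (log axis) for the detected genes that were listed or named (small points), with the median of all detected genes by decile of abundance (line) and selected genes in red. The line falls from 0.861 to 0.293, while Malat1, Lars2 and AK140265 lie above it at high CPM.

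The most variable genes each turned on a few libraries. Irf4, an interferon regulatory factor, had 62.9, 65.7, 3.95 and 0.0877 CPM at 24 hours and 0, 0, 11.6, 32.3 and 18.1 CPM at 1 month. The transcripts AI506816 (chr5:23698296-23712667, minus strand) and BC057675 followed the same order at their extremes: both were highest in 24-hour replicates 1 and 2, at 146 to 188 CPM, and under 3 CPM in 24-hour replicate 6 and in 1-month replicates 1 and 2. Fblim1, a filamin-binding protein, had 325 CPM in 24-hour replicate 1 and at most 2.32 CPM in the other 8.

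Sp100, a nuclear body protein, had 181 CPM in 24-hour replicate 6 and at most 18.7 CPM elsewhere, and Plxnb1, a semaphorin receptor, 166 CPM in the same library and at most 25.9 CPM elsewhere. Slc17a7, the vesicular glutamate transporter of cortical neurons, ran from 0.215 CPM in 24-hour replicate 1 to 75.8 CPM in 24-hour replicate 2. The unannotated transcript AK163440 was high, at 420.0 to 623 CPM, in the 4 libraries in which Snap25 and Malat1 were highest and at most 139 CPM in the other 5.

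**Figure D5:**
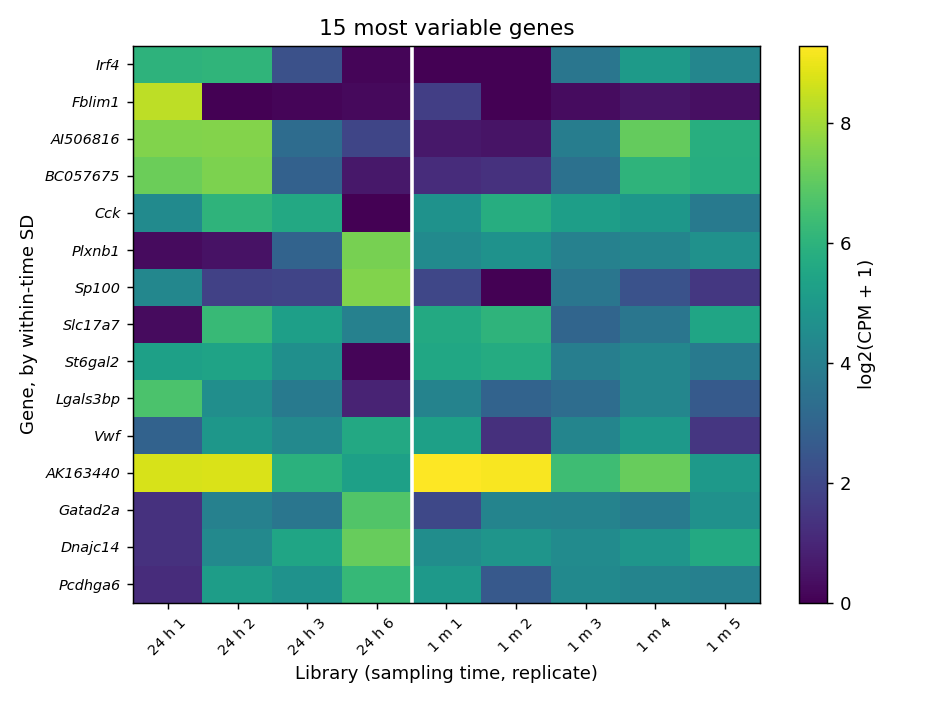
Heat map of log2(CPM + 1) for the 15 genes with the largest within-time SD among genes of 20 CPM or more on average (rows) in the 9 saline libraries (columns, 24 hours left of the white line). Single cells stand out: Fblim1 in 24-hour replicate 1 at 325 CPM, and Sp100 and Plxnb1 in 24-hour replicate 6 at 181 and 166 CPM.

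Dropout was uncommon at moderate abundance. Of 10113 genes with a mean of at least 5 CPM, 228 had no count in at least 1 library and 974 were under 1 CPM in at least 1. At the other end of the scale, Rn45s varied from 42625 to 111600 CPM, Lars2 from 2840 to 14048 CPM and the unannotated AK140265 from 1319 to 17576 CPM. Lars2 encodes a mitochondrial leucyl-tRNA synthetase. Mir6236, a microRNA model of chr9:110281287-110281409 on the plus strand, ranged from 112 to 2417 CPM; it was named after its values were seen.

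The 2 sampling times were compared within the set. edgeR's quasi-likelihood test called 0 of 12838 genes at an adjusted p of 0.05 (0% of the genes tested), and 472 had an unadjusted p under 0.05 (3.68%). DESeq2 called 3 of the 18545 genes to which it gave an adjusted p, all lower at 1 month. It had 982 at an unadjusted p under 0.05, from a larger set of genes than edgeR's 12838. No list had a member called by edgeR, and the unadjusted counts by list are also edgeR's. At an unadjusted p under 0.05 were 0 of the 10 D1 markers, 2 of 5 oligodendrocyte precursor markers tested, 2 of 16 neuropeptide receptors, 2 of 19 immediate early genes and 2 of 20 neuropeptides, and at most 1 gene of any other list. A miss of the threshold at this depth and spread does not show that the times were alike.

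The genes of smallest p were all lower at 1 month. AK038985, an unannotated transcript, had 39.8, 8.54, 4.52 and 17.7 CPM at 24 hours and 0.908 to 2.17 CPM at 1 month (log2 fold change -3.35, SE 0.69, edgeR quasi-likelihood adjusted p = 0.998). Cspg4, which encodes the NG2 proteoglycan of oligodendrocyte precursors and pericytes, had 23.1, 15.4, 8.07 and 68.2 CPM at 24 hours and 1.55 to 6.89 CPM at 1 month (log2 fold change -2.92, SE 0.64, edgeR adjusted p = 0.998). The groups did not overlap for either gene. With DESeq2 their adjusted p was 6.46e-04 and 0.0198. The remaining DESeq2 call, Rslcan18, had 116, 29, 3 and 245 counts in the 24-hour libraries and no count in any 1-month library, and edgeR's low-count filter had removed it. Sufu, a repressor of hedgehog signalling, and Flna, the actin crosslinker filamin A, were also among the 10 genes, with log2 fold changes of -1.65 (SE 0.42) and -2.23 (SE 0.60).

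Without 24-hour replicate 6, the log2 fold change of Cspg4 was -2.03. Taken off the log2 scale, the fold change of 6 of the 10 genes moved by over 1.5 times. Among them was Fam120aos, whose log2 fold change went from -3.21 to -0.61. Without 24-hour replicate 1, that of AK038985 was -2.57. The mean of Cspg4 without 24-hour replicate 6 was 3.93 TPM over 8 libraries, against 6.76 TPM over 9. The sum of the oligodendrocyte precursor markers was 204 TPM in that library and the sum of the vascular markers 824 TPM, the highest of the 9 in both lists, and their part in the time differences was not tested. None of 5 library measures passed the threshold between the times (exact two-sided permutation tests, 4 against 5 libraries, p = 0.191 to 0.683, adjusted p = 0.683 for each; the smallest p this design allows is 0.0159). The share of Rn45s, for example, was 7.09% ± 2.04 at 24 hours (SD, n = 4) and 7.73% ± 2.18 at 1 month (SD, n = 5).

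Beside the cocaine libraries, the saline profile was close to each group's mean. Over the 9326 detected genes the Spearman correlation of mean log2 CPM was 0.987 with nonescalating mice at 1 month (10 libraries), 0.983 with nonescalating mice at 24 hours (9), 0.980 with escalating mice at 1 month (4) and 0.972 with escalating mice at 24 hours (5). The correlation between the 24-hour mean and the 1-month mean of the saline set was 0.969. These are descriptions across genes, which are not independent replicates, and means of fewer libraries carry more noise. One nonescalating library of very low depth was not used in them.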

How the data were processed

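The deposited values are whole-number read counts per gene symbol, 1 table per library, not normalized, per the labels and the values. The submitters' processing notes name the mm10 build, the aligner STAR (2.0.0e) and the counter HTSeq. Which annotation and strand setting were used is not given in the sources used here, so a gene and its antisense or overlapping partner may share reads. Summary lines (reads outside features, ambiguous) stayed out of totals.

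From these counts, CPM used TMM factors and TPM used exon lengths of GENCODE vM21 (GRCm38, the assembly of mm10): 23113 symbols matched directly and 727 by a synonym. log2 CPM used a prior count of 2. The 200-base minimum for TPM was chosen after seeing the data. The times were compared with edgeR 4.0.16 (filterByExpr, minimum count 10, robust quasi-likelihood F test) under R 4.3.3, Benjamini-Hochberg over all genes tested, threshold 0.05; DESeq2 1.42.0 was an alternative. Library measures used exact permutation tests (scipy 1.17.1). The script was tested on simulated data of the time comparison. It recovered 9 of 100 genes changed by 1 log2 and 71 of 100 changed by 2 log2, with 7 false calls. Most 2-fold changes would therefore be missed. Each simulated gene had the spread of edgeR's trend at its abundance, no single library was made to deviate, and genes of low CPM were left unchanged. The shares recovered may therefore be higher than in the measured libraries.

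Named genes were the set markers and D1 and D2 list members, the 20 highest by TPM and 10 by CPM, the leading members of each list, the 15 most and 15 least variable genes of at least 20 CPM, the 10 of smallest p between the times, Rpl10a and Rn45s. Others (Mir6236, Rslcan18, and the genes given as low members of a list or for a single library) were named after their values were seen. Some genes under this rule are not reported here. Members and lists were chosen with earlier results of these data known. Mitochondrially encoded genes were not analysed here. Alternatives were other scalings, thresholds, lengths, filters, a replicate block, all 11 saline libraries and leaving out each library.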

Additional observations from a re-analysis of the deposited data

Results flagged for a closer look

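Of 146 values checked over the 9 libraries (5 library measures and 141 gene levels), 19 had 1 library far from the other 8, by the ratio of the gap to the range (above 0.493, the 95% limit of Dixon's test for 9 values). Chance alone gives about 1 such flag in 20 groups of values not chosen for their spread; some of these genes were named for a large spread or a single library's value, so the number of flags cannot be set against that rate. 24-hour replicate 6 held 10 of the 19.

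In 24-hour replicate 6 the highest values were Cldn5 (258 TPM, next library 38.5), Vtn (181, next 63.0), Sp100 (123, next 13.5), Plxnb1 (88.7, next 15.7), Cspg4 (29.4, next 10.6), Mgll (208, next 103), Chrm1 (225, next 171), Ebf1 (63.4, next 36.3) and Ptpn5 (896, next 666 TPM). In the same library Gabra2 (2.77 TPM, next 23.1) was the lowest.

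The other flags fell singly. In 24-hour replicate 1, Fblim1 had 399 TPM (next 2.79) and Drd3 134 TPM (next 69.5), and in 24-hour replicate 2 Pvalb had 10.1 TPM (next 4.01). In 1-month replicate 1, Gng7 had 2680 TPM (next 1927) and Npy1r 184 TPM (next 59.4). Bdnf in 1-month replicate 2 had 4.79 TPM (next 1.52), Neat1 in replicate 3 had 7.22 TPM (next 2.62) and Xist in replicate 4 had 0.988 TPM (next 0.328). The depth of 1-month replicate 5 was 33.9 M counts (next 12.9 M).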

How the results depend on the processing

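The time comparison called 0 genes with edgeR under DESeq2's size factors, with Rn45s left out and with all 11 saline libraries. The same held under the replicate block and without each library in turn (0 to 0). DESeq2 called 3 of 18545 genes and edgeR with no low-count filter 1 of 19388. The replicate block (388 genes at an unadjusted p under 0.05) rests on shared numbers only, since deviations of same-numbered libraries correlated at 0.041, 0.029 and -0.038. Within the set only replicates 1, 2 and 3 occur at both times. The block drew its time difference from those alone, so its 0 adds little. Of 150 alternative values for the 10 named genes of that comparison, 0 reversed direction and 2 passed the threshold with DESeq2 (AK038985, Cspg4). The other 148 did not pass it. They include Slc4a2 and Fam120aos with DESeq2, which gave these genes no adjusted p. Requiring 1 CPM in any library in place of every one gave 15776 genes, against 9332 to 9882 without single libraries. The share of the top 100 genes was 19.99% without Rn45s in the totals. With the longest transcript as length the log2 ratio of Tac1 to Penk was -1.71. With all 11 saline libraries the median within-time SD was 0.833. The difference in Rn45s share between the times ran from -0.293 to 1.29 percentage points when single libraries were left out, reversed (-0.293) without 24-hour replicate 1, and the depth difference from 0.068 to 5.93 M. The cause of these shifts was not tested. Of 1834 alternative levels of 141 genes, 57 moved by more than 1 SD from the reported mean. With the longest transcript as length 37 moved (Drd1, 635 TPM) and 101 did not. With all 11 libraries 20 moved and 121 did not. Leaving out 1 of 9 libraries, or keeping the 1-month libraries alone, cannot move a mean by 1 SD, so those settings could not flag a gene. With no minimum length, chosen after seeing the data, Drd1 had 798 TPM and Mir6236 ranked 1, at 4943 to 104620 TPM.

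The means of Drd4 (0.0195 TPM without 1-month replicate 5), Chat (0.506) and C1qb (2.78, both without 24-hour replicate 1), Pvalb (0.501 without 24-hour replicate 2), Bdnf (0.508 without 1-month replicate 2), Fblim1 (0.551 without 24-hour replicate 1), Sp100 (4.21) and Plxnb1 (8.56, both without 24-hour replicate 6) moved by over 1.5 times with 1 library. At 9.24 M counts 1 CPM is about 9 counts, which limits the precision of genes near that level.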

Other observations

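Classes outside neuronal signalling were also measured. All 23 translation factors were detected (median 228 TPM), led by the elongation factor gene Eef1a1 (1371 TPM), as were all 16 glycolytic genes (median 257 TPM), with Ldhb at 1885 TPM and Ldha at 560.3 TPM (lactate dehydrogenase subunits). Chaperones (24 of 27 detected, median 249 TPM) included Hspa8 at 1497 ± 244 TPM (SD, n = 9). Of 26 genes of the proton pump and lysosome, 24 were detected, and Atp6v1g2, the neuronal G subunit of the pump, had 2267 TPM. All 27 synaptic adhesion genes were detected (median 101 TPM), among them Nrxn3, a neurexin, at 291 TPM and Nlgn2, the neuroligin of inhibitory synapses, at 236 TPM.

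Immune and cell cycle classes were low. Of 23 interferon and antigen presentation genes 4 were detected (median 3.32 TPM), and the beta-2-microglobulin gene B2m led with 97.5 TPM. Of 8 replication-dependent histone genes in the files 1 was detected, and their sum was 59.8 ± 29.9 TPM (SD, n = 9). Choroid plexus and ependymal genes summed to 58.9 ± 32.6 TPM, with Folr1 and Tmem212 at 0 in all 9 libraries, and red blood cell genes to 12.9 ± 8.64 TPM. Glutamatergic projection neuron markers summed to 87.6 ± 54.5 TPM, with 1 of 10 detected.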
